A study of Mus musculus with 6 samples.

Results

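Genes of cholesterol and fatty acid synthesis were examined in NIH-3T3, a mouse embryonic fibroblast line, and in a mutated derivative of it. The 31 genes were taken by name from the 55401 in the deposited expression table, and all 31 were found and passed the filter on low values that left 14209 genes for testing. They comprise 7 genes from acetyl-CoA to farnesyl diphosphate, 11 from squalene to cholesterol, 5 for the SREBP transcription factors and the proteins that hold or escort them, 3 of sterol transport and 5 of fatty acid synthesis. Messenger RNA was sequenced, with a kit that keeps the strand, from 3 libraries of the derivative (MU, genotype given only as a mutation) and 3 of the parental line (WT). All cells grew in DMEM with 10% fetal bovine serum, and the treatment label, "Cultural", was the same for both groups. Which gene was mutated is not in the labels, nor whether MU is a single clone, and the mutation and other differences between these lines cannot be told apart. Nothing in the labels says that libraries came from separate cultures, and p-values therefore measure only the spread between these libraries, which may be technical. The study's title is about errors in protein synthesis by mitochondria.

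Cholesterol is built from acetyl-CoA through mevalonate, farnesyl diphosphate, squalene and lanosterol. The SREBP factors are made as precursors in the membrane of the endoplasmic reticulum, where SCAP binds them. When sterols are scarce, SCAP carries the precursors to the Golgi, where proteases release the active part. When sterols are plentiful, INSIG proteins retain SCAP in the endoplasmic reticulum. Srebf2 is best known for driving sterol synthesis and Srebf1 for fatty acid synthesis. Cultured fibroblasts use both routes to make membranes and also take up lipoprotein cholesterol from serum.

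The fibroblast label was borne out by its markers: all 8 passed the filter and 4 rose (Col1a1, Col1a2, Fn1 and Thy1), with summed levels of 11060 to 11570 TPM in MU and 8494 to 9785 TPM in WT. TPM divides reads by transcript length and scales every library to the same total, so levels can be compared between genes but sequencing depth is unknown. MtDNA-encoded mRNAs took 13.8 to 15.2% of that total in MU and 8.48 to 12.3% in WT. The libraries differed in their dependence on GC content, with Spearman correlations across genes of -0.12 to 0.17 in MU and 0.33 in WT replicate 2 against -0.08 and -0.25 in the other WT libraries. In bulk RNA of this kind, fewer cells of a type and less RNA per cell cannot be told apart.

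In the mutated cells, 5 members rose and 3 fell. The rises were in Hmgcs1, Fdft1, Sqle and Tm7sf2, which encode enzymes of sterol synthesis, and in Insig2, which encodes a protein that retains SCAP. The falls were in Acaca, Fasn and Elovl6, which encode enzymes that make and lengthen saturated fatty acids. Their log2 fold changes lay between 0.32 and 0.77 for the rises and between -0.61 and -0.45 for the falls, so each changed by less than 2-fold. The threshold was an adjusted p of 0.05 in limma, with Benjamini-Hochberg adjustment over all 14209 genes. Rises made up 16.1% of the members against 7.12% of all tested genes, and falls 9.68% against 11.6%. The median log2 fold change was 0.06 over the members and -0.05 over all tested genes. Values of the groups did not overlap for 8 members as higher in MU (25.8%, against 16.1% of all tested genes) and for 6 as lower (19.4%, against 23.0%). The share of members that fell is thus close to that of all genes. In the authors' deposited table, 6 members had an adjusted p under 0.05 as higher and 3 as lower, where the shares over its 17009 genes with an adjusted p are 9.42% and 11.6%. The additional gene there is Hsd17b7.

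**Figure D1:**
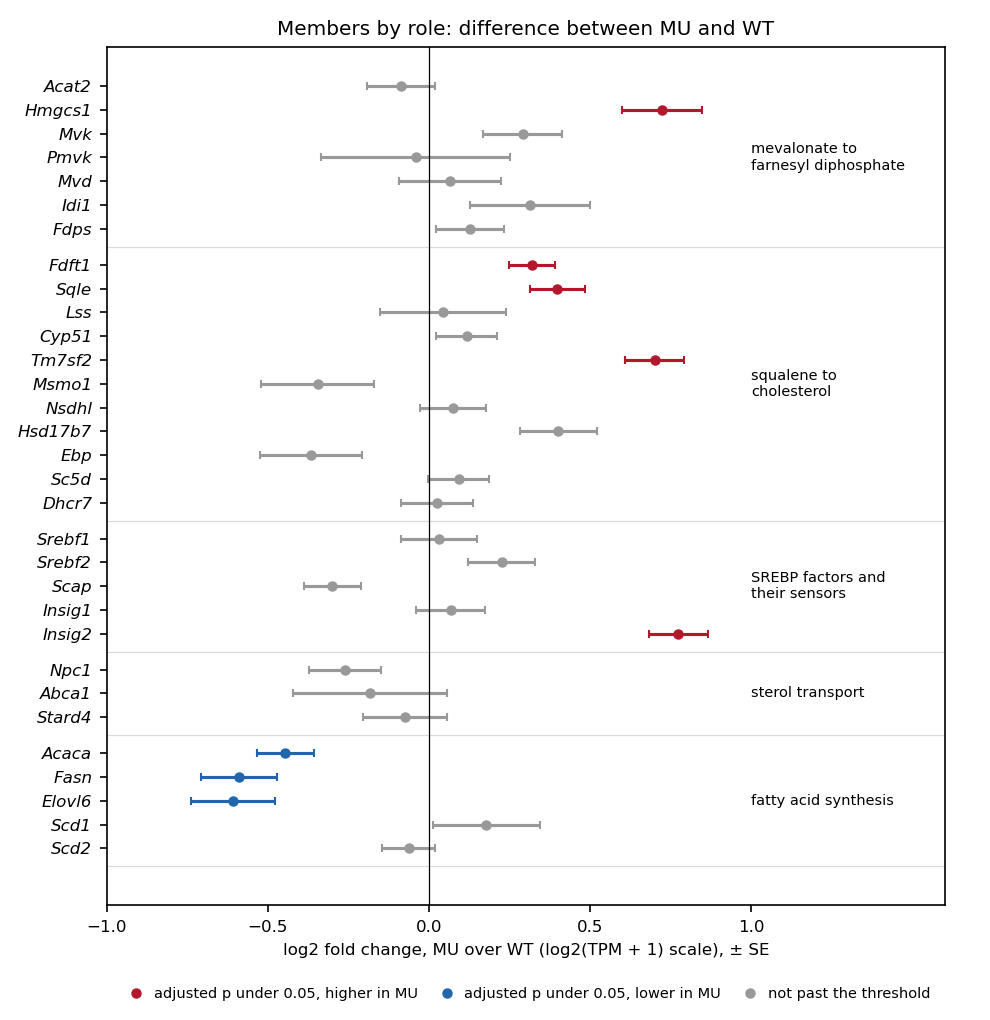
Log2 fold change (MU over WT, on the log2(TPM + 1) scale) of the 31 members, grouped by role from top to bottom, with bars of ± SE from limma. Red and blue points passed a limma adjusted p of 0.05 as higher or lower in MU. The 3 blue points all belong to fatty acid synthesis. None of the 18 sterol synthesis genes is blue, where 11.6% of all tested genes fell.

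Hmgcs1 (ENSMUSG00000093930.2, chromosome 13, 119690379 to 119708260, GRCm38), which encodes the synthase that forms HMG-CoA, had 220.5, 223.1 and 209.3 TPM in the MU libraries, against 139.4, 109.7 and 148.1 TPM in the WT libraries. Every MU library lay above every WT library, and WT replicate 2 was the lowest of the 6. The log2 fold change was 0.72 (SE 0.12, limma adjusted p = 0.011). The call was lost when MU replicate 1 (limma adjusted p = 0.0510) or MU replicate 2 (0.0550) was left out. An antisense gene, Gm48342, overlaps it, at mean levels under 2 TPM in both groups. The other genes up to farnesyl diphosphate did not pass. Mvk, mevalonate kinase, had 63.4, 68.4 and 80.7 TPM in MU and 51.5, 63.1 and 58.3 TPM in WT. These values did not overlap either, but nearly touched (log2 fold change 0.29, SE 0.12, limma adjusted p = 0.156). Idi1, which interconverts the isoprenoid units, averaged 203 ± 35.3 TPM in MU and 163 ± 30.6 TPM in WT (SD, n = 3 each), with overlapping values. Acat2, the cytosolic thiolase that joins acetyl-CoA units, averaged 234 ± 10.1 TPM in MU and 250 ± 28.2 TPM in WT. Fdps, farnesyl diphosphate synthase, was at 478 ± 37.9 TPM in MU and 438 ± 39.9 TPM in WT. Its mean in MU was the highest of all 31, though Scd2 was above it in MU replicates 1 and 2. The mevalonate-phase kinase and decarboxylase genes Pmvk and Mvd were low by comparison, at 26.2 ± 3.64 and 38.1 ± 2.14 TPM in MU and at 28.6 ± 13.3 and 36.96 ± 8.30 TPM in WT. Mvd lies across from Galnt2l on the other strand, and Fdps shares its strand with Gm43738 and Gm22935, so their levels are uncertain. In WT replicate 2, Pmvk stood at 43.8 TPM, where the other WT libraries had 22.2 and 19.7 TPM. Without that library its log2 fold change was 0.30, in place of -0.04, and did not pass (limma adjusted p = 0.18).

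Promoter windows of RefSeq (GRCm38.p6, 250 bases before to 50 after a start that RefSeq annotates, which can lie inside the longest GENCODE gene model) were available for 24 of the 31 genes, in 32 windows. They are shown for genes that changed, because SREBP factors are known to act at promoters together with NF-Y. Letters of the sterol regulatory element, TCACNCCAC (N for any base), and of the NF-Y box, CCAAT, were searched on both strands. Only exact matches were counted, so a window without a match may still hold a variant. The first was found in 1 member window, that of Hmgcs1, 137 bases before the start, and in 1.24% of all 32851 windows of this length. The second was found in 20 of the 32 member windows (62.5%), in 19 genes, and in 37.4% of all windows. Capitals mark either match, and 2 matches to CCAAT on opposite strands overlap in Fasn. The windows are chr13:119690101-119690400 (plus strand) for Hmgcs1, chr19:6067801-6068100 (minus) for Tm7sf2, chr1:121332540-121332839 (minus, 1 of 3 starts) for Insig2 and chr11:120824498-120824797 (minus) for Fasn. The first 3 belong to genes that rose and the last to a gene that fell:
Hmgcs1: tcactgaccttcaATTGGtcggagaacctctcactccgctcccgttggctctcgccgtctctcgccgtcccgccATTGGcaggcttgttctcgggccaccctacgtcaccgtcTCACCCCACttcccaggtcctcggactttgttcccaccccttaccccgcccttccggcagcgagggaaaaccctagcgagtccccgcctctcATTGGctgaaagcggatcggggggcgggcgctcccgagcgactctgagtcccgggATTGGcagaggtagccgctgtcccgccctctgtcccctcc
Tm7sf2: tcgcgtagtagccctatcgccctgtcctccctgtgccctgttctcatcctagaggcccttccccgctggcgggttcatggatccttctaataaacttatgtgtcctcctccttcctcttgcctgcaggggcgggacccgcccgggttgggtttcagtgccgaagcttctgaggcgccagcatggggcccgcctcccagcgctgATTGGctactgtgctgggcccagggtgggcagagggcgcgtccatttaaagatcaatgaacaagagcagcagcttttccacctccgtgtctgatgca
Insig2: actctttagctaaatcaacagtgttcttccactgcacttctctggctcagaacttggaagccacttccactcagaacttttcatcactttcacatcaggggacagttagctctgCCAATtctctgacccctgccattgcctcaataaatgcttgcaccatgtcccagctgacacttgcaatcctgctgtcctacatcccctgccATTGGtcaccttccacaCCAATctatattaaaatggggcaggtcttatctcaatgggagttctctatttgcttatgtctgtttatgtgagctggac
Fasn: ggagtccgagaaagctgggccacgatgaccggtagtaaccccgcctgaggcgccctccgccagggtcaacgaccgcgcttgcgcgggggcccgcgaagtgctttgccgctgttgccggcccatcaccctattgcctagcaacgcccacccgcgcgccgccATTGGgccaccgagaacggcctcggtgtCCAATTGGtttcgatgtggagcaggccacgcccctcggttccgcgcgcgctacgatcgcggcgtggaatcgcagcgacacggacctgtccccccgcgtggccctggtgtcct

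The letters CCAAT stood in windows of genes that rose and of a gene that fell. They also stood in windows of many members that did not pass, such as Mvk, Lss, Cyp51 and Insig1. The single window of Elovl6 held neither match. That of Acaca (chr11:84195188-84195487) held neither as well, but it lies at a start inside the gene as GENCODE gives it. The other windows of Insig2, also at starts inside the gene, held neither. Fdft1, Sqle, Fdps, Stard4, Npc1, Scd1 and Scd2 had no entry.

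Of the 11 genes from squalene to cholesterol, 3 rose (27.3%, against 7.12% of all tested genes) and the others did not pass. Fdft1 (ENSMUSG00000021273.11, chromosome 14, 63145150 to 63179578), squalene synthase, had 105.7, 103.8 and 101.4 TPM in MU, against 81.1, 82.2 and 85.4 TPM in WT. The groups did not overlap, with an SD of 2.18 TPM in MU and 2.25 TPM in WT. Its log2 fold change was 0.32 (SE 0.07, limma adjusted p = 0.0261). Leaving out WT replicate 1 (limma adjusted p = 0.0779) or any MU library (0.0899 to 0.119) ended the call. After position centring, which takes off the median change of neighbouring genes, it was 0.25 and did not pass (limma adjusted p = 0.0644). Its last 774 bases overlap Ctsb on the other strand (211 TPM in MU, 248 TPM in WT), and whether reads were counted by strand is not stated, so its level is uncertain to that extent.

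Sqle (ENSMUSG00000022351.14, chromosome 15, 59315077 to 59331192), squalene epoxidase, which is a controlled step of the pathway, had 231.2, 226.9 and 233.6 TPM in MU, against 177.0, 160.6 and 187.6 TPM in WT. The MU libraries lay close together and above all WT libraries. The log2 fold change was 0.40 (SE 0.09, limma adjusted p = 0.023). Without WT replicate 1 the limma adjusted p was 0.0648, and without any 1 MU library it was 0.0934 to 0.0967. Tm7sf2 (ENSMUSG00000024799.16, chromosome 19, 6062821 to 6068373), a sterol reductase that acts after lanosterol, had 28.2, 31.5 and 32.1 TPM in MU, against 17.8, 19.2 and 18.3 TPM in WT. This gave the smallest adjusted p among the sterol enzymes, at a difference of 0.70 on the log2 scale (SE 0.09, limma adjusted p = 0.0045). The adjusted p stayed between 0.00634 and 0.0324 (limma) without any 1 library. Vps51 overlaps 532 bases of it on the same strand, at 36.7 TPM in MU and 42.8 TPM in WT, so reads there could be assigned to either gene.

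Hsd17b7, a ketoreductase of the same stretch, had 38.6, 36.1 and 35.1 TPM in MU, against 32.2, 24.4 and 26.3 TPM in WT. The groups did not overlap, and it missed the threshold (log2 fold change 0.40, SE 0.12, limma adjusted p = 0.062). The threshold was met when WT replicate 1 was left out (limma adjusted p = 0.0365), with quantile normalization (0.0272), with the GC and length correction (0.0137) and with median-of-ratios scaling (0.027), and in the authors' deposited table its log2 fold change was 0.45 (adjusted p = 0.00376). Its chromosomal neighbours were also higher in MU, by a median of 0.35 on the log2 scale relative to all genes, and its log2 fold change after centring on them was 0.05. In the other direction, Msmo1, a methylsterol oxidase, averaged 220 ± 21.1 TPM in MU and 283 ± 62.2 TPM in WT, with values that overlapped only through WT replicate 2 (217 TPM). It passed as lower without that library (log2 fold change -0.52, limma adjusted p = 0.0272). Ebp, a sterol isomerase, had 18.99, 22.7 and 16.7 TPM in MU and 22.9, 30.2 and 23.1 TPM in WT, with no overlap but nearly touching (limma adjusted p = 0.161). The remaining members differed little between groups. Lss, lanosterol synthase, averaged 68.2 ± 3.69 TPM in MU and 67.9 ± 19.9 TPM in WT, with 90.3 TPM in WT replicate 2. Cyp51, lanosterol demethylase, averaged 135 ± 5.82 TPM in MU and 125 ± 11.6 TPM in WT. Its neighbours had a median log2 fold change of -0.32 relative to all genes, and after centring on them it passed as higher (log2 fold change 0.44, limma adjusted p = 0.0257). Centring takes off a fixed value, so adjusted p after it leave out the uncertainty of the neighbours' median. Nsdhl and Sc5d, a dehydrogenase and a desaturase of late sterols, averaged 54.6 ± 3.13 and 64.8 ± 2.81 TPM in MU, and 51.9 ± 5.40 and 60.8 ± 5.62 TPM in WT. Dhcr7, the reductase that ends the branch through 7-dehydrocholesterol, averaged 19.9 ± 1.94 TPM in MU and 19.5 ± 1.67 TPM in WT.

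**Figure D2:**
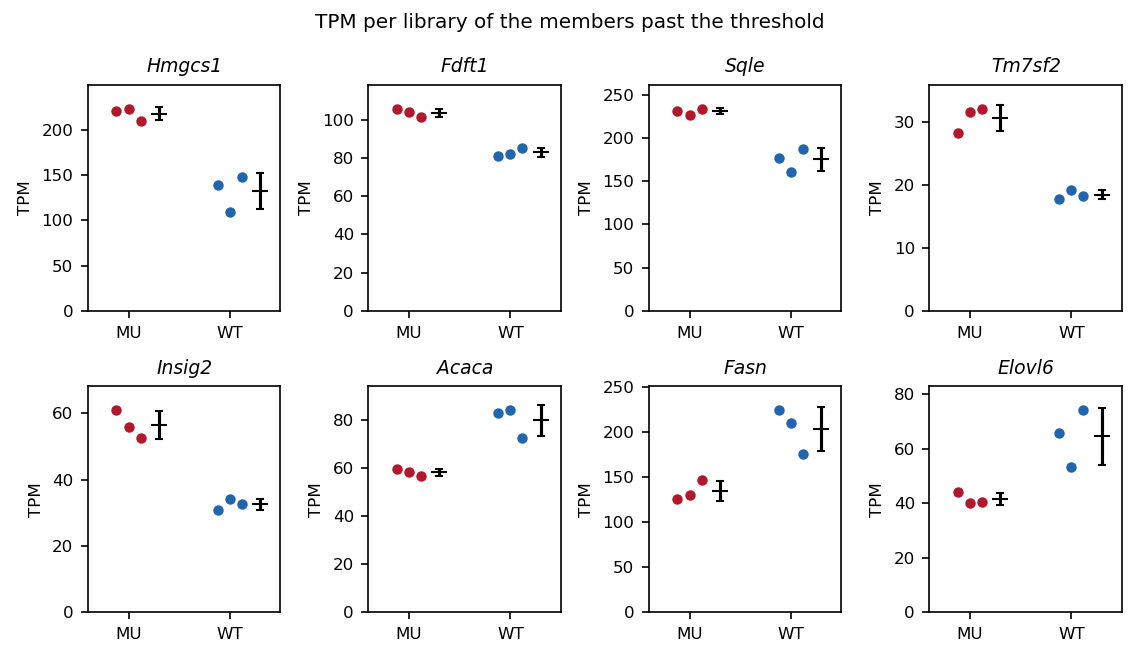
TPM per library (points) of the 8 members past the threshold, MU left and WT right in each panel, with black bars for mean ± SD (n = 3). In none of the panels do the groups overlap: Hmgcs1 had 209.3 to 223.1 TPM in MU and 109.7 to 148.1 TPM in WT, and Fasn 126.2 to 147.4 TPM in MU and 176.3 to 224.3 TPM in WT. The members were chosen by the test on these same values, so the lack of overlap largely follows from that choice.

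Summed over the 18 sterol synthesis members, the level was 2210, 2247 and 2295 TPM in MU, against 2044, 1960 and 2128 TPM in WT. The sums did not overlap and their means were in a ratio of 1.10. Hmgcs1 contributed 85.2 TPM and Sqle 55.5 TPM to the higher mean in MU, while Msmo1 contributed -63.5 TPM.

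Among the genes of SREBP control, Insig2 rose and the factors themselves did not pass. Insig2 (ENSMUSG00000003721.14, chromosome 1, 121304353 to 121332589) had 60.9, 55.9 and 52.5 TPM in MU, against 30.8, 34.3 and 32.6 TPM in WT. All MU libraries were above all WT libraries. On the log2 scale this is a difference of 0.77 (SE 0.09, limma adjusted p = 0.0034), the largest among the 31 genes in the test as run, and the adjusted p stayed between 0.00504 and 0.0232 (limma) without any 1 library. Its paralog Insig1, which is itself a well-known SREBP target, had 132.6, 133.7 and 131.4 TPM in MU and 131.5, 109.8 and 140.4 TPM in WT. The MU values of Insig1 lay inside the WT range (log2 fold change 0.07, SE 0.11, limma adjusted p = 0.712). Insig1 lies among genes with a median log2 fold change of -0.41 relative to all genes, and after centring on them it passed as higher (log2 fold change 0.48, limma adjusted p = 0.029). That call comes from the value taken off, whose uncertainty the adjusted p leaves out. The ratio of Insig2 to Insig1 was 0.459, 0.418 and 0.399 in MU, against 0.234, 0.312 and 0.232 in WT, without overlap.

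Srebf2 had 156.9, 143.7 and 161.8 TPM in MU and 139.1, 140.4 and 116.6 TPM in WT (log2 fold change 0.23, SE 0.10, limma adjusted p = 0.183). It passed with the GC and length correction (adjusted p = 0.0299, limma), but not when the replicate block was added to that correction (0.0885). After position centring its log2 fold change was 0.08 and did not pass (limma adjusted p = 0.656). Srebf1 was near 30 TPM in both groups, at 29.9 ± 2.41 TPM in MU and 29.4 ± 3.48 TPM in WT. The ratio of Srebf1 to Srebf2 was 0.175 to 0.209 in MU and 0.209 to 0.236 in WT, so the groups met at the same rounded value. Scap had 24.6, 24.9 and 27.5 TPM in MU, against 32.1, 33.1 and 30.3 TPM in WT. Its groups did not overlap, and it missed the threshold at an adjusted p of 0.0605 (limma; log2 fold change -0.30, SE 0.09). Scap passed with the GC and length correction (adjusted p = 0.038, limma) and after position centring (0.0464).

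The 3 sterol transport genes did not pass. Npc1, which exports cholesterol from lysosomes, had 8.65, 8.83 and 9.30 TPM in MU and 11.7, 9.76 and 11.3 TPM in WT, without overlap (log2 fold change -0.26, SE 0.11, limma adjusted p = 0.157). Stard4, a cytosolic sterol carrier, averaged 49.2 ± 1.72 TPM in MU and 52.3 ± 8.96 TPM in WT. Abca1, which exports cholesterol to lipoproteins and is a target of the oxysterol receptors LXR, had the lowest level of the 31, at 1.79 ± 0.655 TPM in MU and 2.13 ± 0.498 TPM in WT.

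Of the 5 genes of fatty acid synthesis, 3 fell (60%, against 11.6% of all tested genes) and the desaturases did not pass. Acaca (ENSMUSG00000020532.18, chromosome 11, 84129672 to 84401651), the carboxylase that makes malonyl-CoA, had 59.7, 58.3 and 56.7 TPM in MU, against 83.1, 84.1 and 72.4 TPM in WT. The groups were well apart (log2 fold change -0.45, SE 0.09, limma adjusted p = 0.0174). The limma adjusted p was 0.0625 when WT replicate 1 was left out and 0.0677 to 0.0792 when any MU library was. Fasn (ENSMUSG00000025153.9, chromosome 11, 120805846 to 120824547), fatty acid synthase, had 126.2, 130.1 and 147.4 TPM in MU, against 224.3, 209.8 and 176.3 TPM in WT. Both groups spread widely, with WT replicate 3 the nearest to the MU libraries (log2 fold change -0.59, SE 0.12, limma adjusted p = 0.0179). Fasn was no longer called when WT replicate 1 (limma adjusted p = 0.0601), MU replicate 1 (0.0778) or MU replicate 2 (0.0798) was left out.

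Elovl6 (ENSMUSG00000041220.10, chromosome 3, 129532355 to 129638495), the elongase of palmitate, had 44.2, 40.1 and 40.5 TPM in MU, against 65.9, 53.4 and 74.1 TPM in WT. The MU libraries lay close together and the WT libraries spread more (log2 fold change -0.61, SE 0.13, limma adjusted p = 0.0225). When WT replicate 1 (limma adjusted p = 0.0778) or any MU library (0.0645 to 0.0894) was left out, the call was lost. Genes around Elovl6 had a median log2 fold change of -0.27 relative to all genes, and after centring on them its log2 fold change was -0.34 and did not pass (limma adjusted p = 0.138). Medians around Acaca and Fasn were -0.02 and -0.01.

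Scd1 and Scd2 encode stearoyl-CoA desaturases, which turn saturated into monounsaturated fatty acids. By mean, Scd2 was the most abundant member in WT, though Fdps was above it in WT replicate 2 (484.1 TPM). Scd2 had 474.7, 461.4 and 462.4 TPM in MU and 515.3, 463.6 and 484.4 TPM in WT (log2 fold change -0.06, SE 0.08, limma adjusted p = 0.642). Scd1 had 114.8, 88.3 and 79.5 TPM in MU and 81.1, 71.9 and 95.3 TPM in WT (log2 fold change 0.18, SE 0.17, limma adjusted p = 0.511). In both genes the groups overlapped. The pair lie near each other on chromosome 19, with Scd4 between them, and are close paralogs, so reads they share could be split between them. Their summed level was 560 ± 25.6 TPM in MU and 570 ± 31.5 TPM in WT. It can also depend on such a split, because TPM divides by length and the pair differ in it (4892 bases for Scd1 and 5464 for Scd2 in GENCODE). Acaca, Fasn and Elovl6, the members that fell, together stood at 230, 228 and 244.5 TPM in MU, against 373, 347 and 323 TPM in WT. Because each was lower without overlap, this sum had to be so too and is only a description. Over all 5 genes the level was 819.6, 778.1 and 786.3 TPM in MU, against 969.7, 882.9 and 902.5 TPM in WT. The ratio of the sterol sum to this sum was 2.83 ± 0.121 in MU and 2.23 ± 0.126 in WT, with no overlap in either. Both sums include members already called, so these values are descriptions as well and no separate evidence. Of 10 adipocyte markers, 9 were below 1 TPM in all 6 libraries, and Cidec, Cebpa and Lep were listed at 0 in every library. The list's summed level was 13.2 to 13.5 TPM in MU and 19.2 to 23.0 TPM in WT, nearly all of it from Lpl, a lipoprotein lipase gene that fell (12.2 ± 0.379 TPM in MU, 20.7 ± 2.06 TPM in WT, limma adjusted p = 0.00672). Its part in the fall of the fatty acid genes was not tested.

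**Figure D3:**
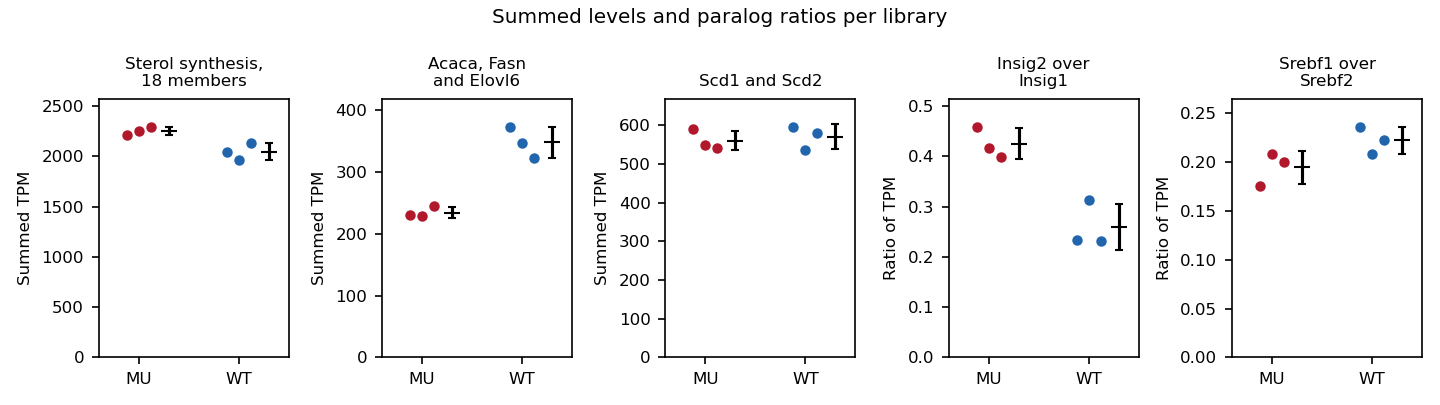
Summed TPM (first 3 panels) and ratios of TPM between paralogs (last 2 panels) per library, MU left and WT right, with black bars for mean ± SD (n = 3). The 18 sterol genes sum to 2210 to 2295 TPM in MU and 1960 to 2128 TPM in WT, and the sums of Scd1 and Scd2 overlap. The 3 fatty acid genes of the second panel were summed because they fell, so their sum had to be lower in MU.

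The members also varied within the WT group. WT replicate 2 was the lowest of the 3 WT libraries for 16 members and the highest for 11. The median GC content of their longest transcripts was 45.98% for the 16 and 50.96% for the 11. Across the 31 members, the deviation of a WT library from the WT mean had a Spearman correlation with GC content of 0.702 in replicate 2, -0.386 in replicate 1 and -0.598 in replicate 3. These are descriptions across genes that share a library, and the deviations of the 3 libraries sum to 0. With the GC and length correction, all 8 calls remained and Hsd17b7, Srebf2 and Scap were added, giving 7 rises and 4 falls. Calls over all genes also became more, at 3367 of 14189 tested genes with the correction and 2667 of 14209 without it.

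**Figure D4:**
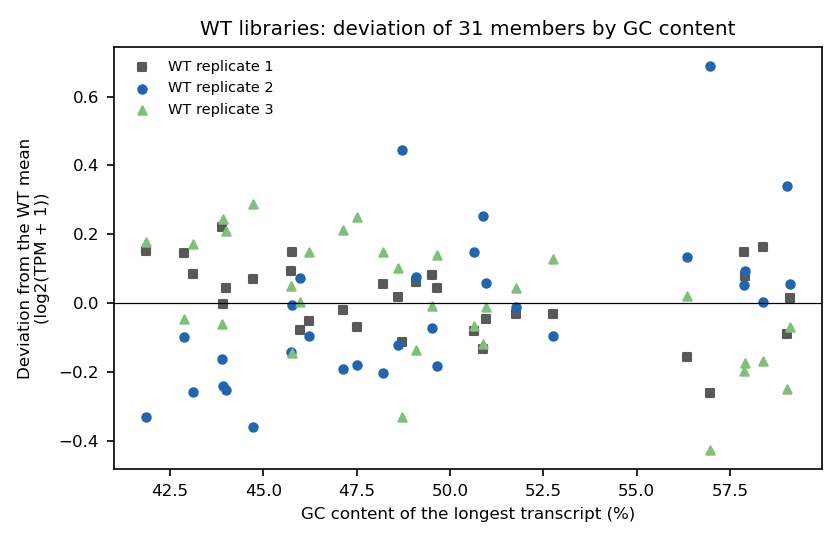
Deviation of each member from its WT mean (log2(TPM + 1)) against the GC content of its longest transcript, for the 3 WT libraries. Points of WT replicate 2 lie mostly below 0 at low GC content and mostly above 0 at high GC content, with Spearman correlations of 0.702 in replicate 2 and -0.598 in replicate 3.

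Other genes of lipid synthesis and sterol handling were taken as 7 lists of 120 genes in all, of which 104 were tested. Of these, 5 rose (4.81%, against 7.12% of all tested genes) and 22 fell (21.2%, against 11.6%), with a median log2 fold change of -0.17. The falls include Elovl4 and Agpat2, which passed the filter only through the WT libraries and so had to differ. Without them, 5 rose and 20 fell of 102, with a median of -0.16. Among 14 tested genes of the branches after farnesyl diphosphate, toward prenyl groups, ubiquinone or dolichol, 5 fell (35.7%, against 11.6% of all tested genes, median -0.25). They include Rabggta and Rabggtb, the subunits of the enzyme that prenylates Rab proteins. Rabggta averaged 13.4 ± 0.354 TPM in MU and 22.0 ± 2.45 TPM in WT (limma adjusted p = 0.00935), and Rabggtb 158 ± 7.59 TPM in MU and 226 ± 12.5 TPM in WT (0.00906). Rabggtb did not pass without MU replicate 1 or MU replicate 2, with a highest adjusted p of 0.0542 (limma).

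In the list of sterol sensing and protein turnover in the endoplasmic reticulum, 5 of 13 tested genes fell (38.5%, against 11.6% of all tested genes; median -0.17). Vcp, the ATPase that extracts ubiquitinated proteins from the membrane, averaged 348 ± 11.2 TPM in MU and 485 ± 22.1 TPM in WT (limma adjusted p = 0.0108). The call was lost without any 1 MU library (up to 0.0657). The proteases that release SREBP in the Golgi were chosen after their values were seen. Mbtps2, the intramembrane protease, had 25.5, 24.5 and 23.1 TPM in MU, against 37.6, 35.1 and 44.7 TPM in WT (limma adjusted p = 0.011). Mbtps1, which cuts first, had 66.1, 59.6 and 62.7 TPM in MU, against 79.8, 80.97 and 82.7 TPM in WT (limma adjusted p = 0.0214). Genes around them had median log2 fold changes of -0.42 for Mbtps2 and -0.35 for Mbtps1 relative to all genes, and neither passed after centring on them. Neither passed without MU replicate 2 or MU replicate 3, and Mbtps1 also not without MU replicate 1 or WT replicate 1, with highest adjusted p of 0.0519 for Mbtps2 and 0.108 for Mbtps1 (limma).

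Of 17 tested genes of sterol uptake, transport and esterification, 4 fell (23.5%, against 11.6% of all tested genes; median -0.10). Tmem97, a sterol-responsive membrane protein, averaged 73.9 ± 2.23 TPM in MU and 105.5 ± 7.82 TPM in WT (limma adjusted p = 0.0106). It did not pass without MU replicate 1 or MU replicate 3 (up to 0.0553). Nceh1, a cholesteryl ester hydrolase, averaged 8.48 ± 1.89 TPM in MU and 18.8 ± 2.74 TPM in WT (limma adjusted p = 0.011). In the LXR list, 7 of 12 genes were below 1 TPM in every library, and of the 5 tested Mylip rose, or 20% against 7.12% of all tested genes (16.3 ± 1.63 TPM in MU, 12.1 ± 0.233 TPM in WT, limma adjusted p = 0.0437; up to 0.157 and not passing without any 1 of the 6 libraries). Mylip encodes a ubiquitin ligase that degrades lipoprotein receptors.

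In the list nearest in function to the fatty acid enzymes, the shares that rose and fell were close to those of all tested genes. Of 24 tested genes for acetyl-CoA supply and for elongation, desaturation and activation of fatty acids, 2 rose (8.33%, against 7.12% of all tested genes) and 3 fell (12.5%, against 11.6%), with a median of -0.16. Without Elovl4, 2 rose and 2 fell of 23. Acss2, which makes acetyl-CoA from acetate and is a known SREBP target, had 17.5, 18.5 and 14.9 TPM in MU, against 6.92, 7.96 and 7.37 TPM in WT. All MU libraries were above all WT libraries (log2 fold change 1.09, limma adjusted p = 0.00252). Fads3, a member of the desaturase cluster, averaged 54.9 ± 5.29 TPM in MU and 28.9 ± 6.78 TPM in WT (limma adjusted p = 0.0134). It did not pass without MU replicate 2, MU replicate 3 or WT replicate 1 (up to 0.0579). Fabp5, a carrier of fatty acids, had 55.1, 45.5 and 42.9 TPM in MU, against 104.4, 115.5 and 113.6 TPM in WT (limma adjusted p = 0.00149). Elovl4, an elongase of very long chains, was at 0.128 ± 0.0281 TPM in MU and 2.43 ± 0.617 TPM in WT, given as values with no test.

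The 19 tested genes of glycerolipid synthesis gave 2 rises (10.5%, against 7.12% of all tested genes) and 2 falls (10.5%, against 11.6%), with a median of 0.00. Without Agpat2, 2 rose and 1 fell of 18. Lpin1, a phosphatidate phosphatase, averaged 13.5 ± 0.320 TPM in MU and 9.41 ± 0.767 TPM in WT (limma adjusted p = 0.0224), and did not pass without WT replicate 1 or any 1 MU library (up to 0.09). Agpat4, an acyltransferase, had 29.4, 30.0 and 29.3 TPM in MU, against 11.1, 6.76 and 20.9 TPM in WT (limma adjusted p = 0.0477), and passed in 1 of the 6 fits that leave out a library, that without WT replicate 3. Its relative Agpat2 was at 0.0690 ± 0.0699 TPM in MU and 1.73 ± 0.0588 TPM in WT, likewise with no test. Cept1, which completes phosphatidylcholine and phosphatidylethanolamine, averaged 25.7 ± 0.657 TPM in MU and 37.4 ± 2.34 TPM in WT (limma adjusted p = 0.00942). Among 12 tested partners and regulators of SREBP, 3 fell (25%, against 11.6% of all tested genes; median -0.25). Nfya, the NF-Y subunit that contacts the CCAAT box, averaged 31.9 ± 1.48 TPM in MU and 45.4 ± 4.61 TPM in WT (limma adjusted p = 0.0191), and did not pass without any 1 MU library (up to 0.0813). Rptor, a subunit of mTOR complex 1, averaged 30.2 ± 0.611 TPM in MU and 39.2 ± 1.01 TPM in WT (limma adjusted p = 0.021), and did not pass without WT replicate 1 or any 1 MU library (up to 0.101).

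**Figure D5:**
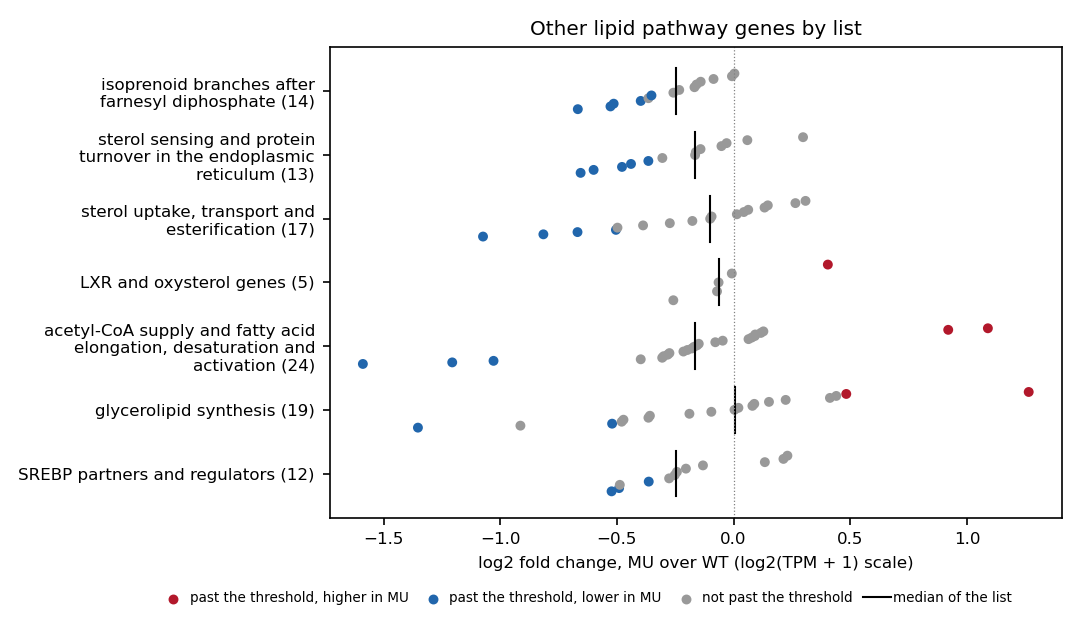
Log2 fold change (MU over WT, on the log2(TPM + 1) scale) of the 104 tested genes of 7 further lists, 1 point per gene, with the number tested in brackets and a black line at the median of each list. Blue points outnumber red ones (22 against 5), and the highest points of the acetyl-CoA list are Acss2 and Fads3.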

How the data were processed

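Messenger RNA of 3 MU and 3 WT libraries was compared. The authors deposited log2(TPM + 1) values per gene and library, per the file headers and the values, and a table of their own with mean TPM, log2 fold change and p-values. The submitters' processing notes list mm10 as the build, with DESeq2 1.20.0, featureCounts 1.5.0-p3, HISAT2 2.05.0 and FastQC 0.11.4, without the role or settings of each. TPM keeps no depth, so no counting interval was computed, and TPM values are relative to a total that mtDNA-encoded mRNAs share.

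Genes with TPM of at least 1 in at least 3 libraries were tested as log2(TPM + 1) with limma 3.58.1 in R 4.3.3 (intensity trend, two-sided, no covariate), with p-values adjusted over all tested genes. A fold change on this scale understates that of low genes. The test was tried on simulated data. Positions, GC content and length come from GENCODE M21 (GRCm38), matched by identifier for 55141 of 55401 genes, 54349 of them with the same version. Fdft1 matched without its version.

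Members and lists were chosen with earlier results of these data known. All members are named, and in each list the 2 higher and 2 lower called genes with the smallest adjusted p. A gene that this rule would name is not reported here. Lists of other pathway genes and of cell type markers were written from general knowledge. The other marker lists, with summed levels in MU and in WT, were epithelium (0.41 to 0.666 and 0.24 to 0.662 TPM), leukocytes (10.2 to 12.6 and 4.73 to 5.46 TPM), endothelium (0.692 to 0.867 and 1.62 to 3.22 TPM), muscle (0.631 to 1.22 and 0.203 to 0.363 TPM) and hepatocytes (3.88 to 6.33 and 0.142 to 0.417 TPM, from Serpina1a, with the other 5 at 0). Their part in the results was not tested.

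Alternatives tried were leaving out each library, fits with the replicate number as a block, centring on up to 20 protein-coding neighbours on each side, a loess correction (span 0.3) for GC content and length with and without that block, quantile normalization, scaling by median of ratios, TPM recomputed with mtDNA-encoded genes removed, pseudocounts of 5 and 0.1, a minimum of 5 TPM or none, and limma robust or with no trend.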

Additional observations from a re-analysis of the deposited data

How the results depend on the processing

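Of the 5 rises, Insig2 and Tm7sf2 passed under every alternative run (limma adjusted p up to 0.0312 and 0.0333). The members higher in MU numbered 3 with the replicate block and 2 to 5 without any 1 library, and 4 to 7 under the other alternatives. Members lower in MU numbered 0 with the replicate block (limma, 4 at an unadjusted p under 0.05), 0 to 4 without any 1 library, and 2 to 4 otherwise. The count was 0 without MU replicate 1, MU replicate 2 or WT replicate 1 (3, 4 and 4 at an unadjusted p under 0.05, limma). Leaving out a library also leaves fewer samples, and calls over all genes, 2667 with all libraries, moved as well. They numbered 1158, 1071 and 1203 without MU replicates 1, 2 and 3. Without WT replicates 1, 2 and 3 they numbered 1430, 3391 and 2575. With the GC and length correction the block left 5 rises and 3 falls. These rises include Hsd17b7 (limma adjusted p = 0.0387) and not Fdft1 (0.0536). Same-numbered libraries of the groups did not deviate together (correlations across genes of 0.0495, 0.0154 and -0.0744), so the numbers are not treated as pairs; over all genes the block took the calls to 1093, against 2667 without it.

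Other pathway genes higher in MU numbered 2 with the block, 3 with no filter or without trend, 9 with quantile normalization, 8 with median-of-ratios scaling or with mtDNA-encoded genes removed from TPM and 1 to 5 without any 1 library. Those lower numbered 8 with the block and 9 to 33 without any 1 library, the highest without WT replicate 2. That fit also had the most calls over all genes (3391) among those that leave out a library. Of the 27 calls, 9 were called in each of the 6 fits that leave out a library. Scaling moved the share of all calls that were higher in MU, which was 37.9%, to 48.8% under quantile normalization, 48.3% under median-of-ratios scaling and 48.5% with mtDNA-encoded genes removed. The cause was not tested.

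Sign changes occurred only in members that did not pass either way. The log2 fold changes were 0.042 for Acat2, 0.0274 for Pmvk, 0.0312 for Stard4 and 0.0235 for Scd2 with quantile normalization. With mtDNA-encoded genes removed they were 0.0213 for Pmvk and 0.000924 for Scd2, and scaling by median of ratios gave 0.0206 for Pmvk and 0.00135 for Scd2. With the GC and length correction, with or without the block, they were 0.00662 for Stard4 and 0.0194 for Scd2. Position centring gave 0.113 for Pmvk, -0.0728 for Lss, -0.139 for Srebf1 and 0.176 for Stard4. Without any 1 library the values were -0.255 to 0.302 for Pmvk, -0.0595 to 0.234 for Mvd, -0.123 to 0.265 for Lss, -0.0472 to 0.0888 for Dhcr7, -0.0537 to 0.112 for Srebf1, -0.0353 to 0.141 for Insig1 and -0.196 to 0.0472 for Stard4.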
